A study of Mus musculus with 8 samples.

Results

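The genes described here encode subunits of voltage-gated sodium channels in the mouse hippocampus: the alpha subunits Scn1a, Scn2a1, Scn3a and Scn8a and the beta subunits Scn2b, Scn3b and Scn4b. They were taken from the deposited expression data by symbol, as members of a gene family chosen with earlier results of these data known, and they are 7 of 19201 genes. All 7 passed the filter on low values and were among the 14504 genes tested. Hippocampal RNA was sequenced in 8 libraries, 4 per genotype, and every library stands for a pool of 2 mice, male and female hippocampi being grouped by the study. Mbd2 encodes a protein that binds methylated CpG sites, and the Mbd2-/- mice carry a constitutive null allele on a C57BL/6 background that leaves exon 1 of Mbd2 in place. The wild-type mice were C57BL/6. Both genotypes came from heterozygous parents, were 10 to 12 weeks old and received no treatment.

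Voltage-gated sodium channels open when the membrane of a neuron depolarizes, and the sodium current they carry starts and propagates the action potential. The alpha subunit forms the pore, the voltage sensor and the inactivation gate. The beta subunits are single-pass membrane proteins with an immunoglobulin-like domain that adjust gating and surface level of the channel and act as cell adhesion molecules. In the hippocampus, Scn1a is known for its role in inhibitory interneurons, Scn2a1 and Scn8a serve the axon initial segment of excitatory neurons, and Scn3a is best known from the embryonic brain.

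The values are normalized counts, that is, reads on a gene divided by the size factor of the library, and they correct for depth but not for transcript length. Reads on genes ran from 8439570 to 23790825 per wild-type and from 8087750 to 14020765 per Mbd2-/- library, and the 7 genes drew between 276 reads (Scn4b) and 10526 reads (Scn8a) per library. Genotypes were compared on log2(normalized count + 1) with limma, a fold change is the Mbd2-/- minus the wild-type mean on that scale, and a gene is called where its Benjamini-Hochberg adjusted p over all tested genes is under 0.05. As a check of the labels, the normalized count of Mbd2 was 346 ± 34.4 (SD, n = 4 libraries) in wild-type and 260 ± 54.3 (SD, n = 4) in Mbd2-/- hippocampi. Its log2 fold change was -0.43 (adjusted p = 0.0174, limma), the libraries of both genotypes overlapped (Mbd2-/- replicate 3 at 339 against 295 in wild-type replicate 1), and the exact two-sided permutation p was 0.0571, where 0.0286 is the smallest that 4 against 4 libraries allow. Reads from the intact exon 1 count towards these values, so that they check the allele only in part.

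Of the 7 subunits, 6 were called lower and 0 higher in Mbd2-/- hippocampi, where 10.0% of all tested genes were called lower and 12.0% higher (limma, Benjamini-Hochberg). The 6 genes were Scn1a, Scn2a1, Scn8a, Scn2b, Scn3b and Scn4b, and their mean normalized counts were 16.7% to 19.6% lower in Mbd2-/-. With a trend of fold change with transcript length removed, the 6 genes were still called lower, but the log2 fold changes of Scn1a, Scn2a1 and Scn8a shrank from -0.30 each to -0.17, -0.17 and -0.15. The same 6 genes had no overlap between the genotypes, every Mbd2-/- library being below every wild-type library, a separation in this direction that 11.5% of tested genes showed. Scn3a was not called. The median log2 fold change of the 7 genes was -0.30 and lay at percentile 6.99 of the tested genes, 10% of which were below -0.26. When limma tested for a minimum change of 1.2-fold, none of the 7 genes was called, and 0.159% of all tested genes were called lower. All 6 genes had an adjusted p under 0.05 in the test against no change. The minimum change was the null of the test, not a cut-off on the estimate, and the 6 estimates ran from -0.32 to -0.26. None of these tests tells fewer neurons in the tissue from less RNA per neuron, which cannot be told apart in bulk RNA.

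**Figure D1:**
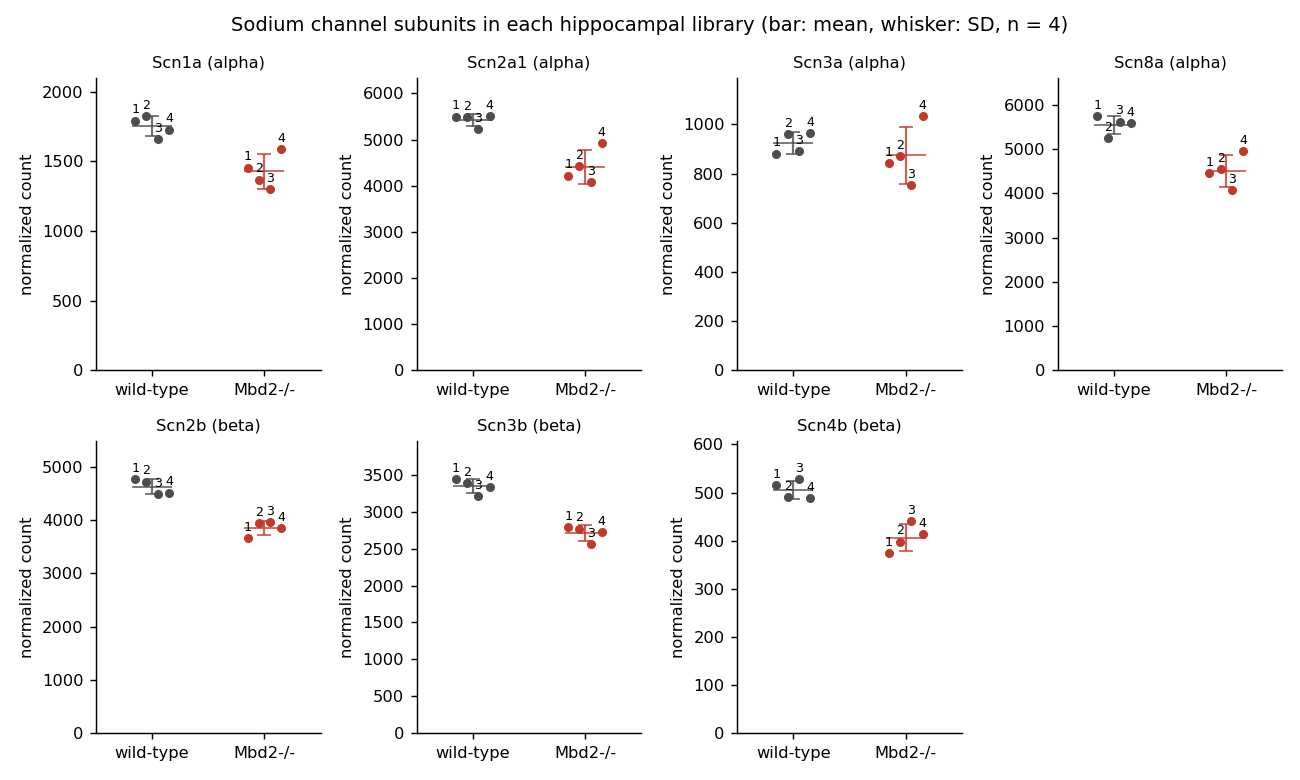
Normalized counts (y axes, from 0) of the 4 alpha and 3 beta genes in each wild-type (grey) and Mbd2-/- (red) library, with replicate numbers beside the points, the mean as a bar and the SD as a whisker (n = 4). In 6 genes every Mbd2-/- point lies below every wild-type point, while in Scn3a the points overlap.

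Among the alpha subunits, Scn2a1 and Scn8a had the largest counts. Scn2a1, on the plus strand of chromosome 2 (mm9 chr2:65458914-65605504, 27 exons, longest annotated transcript 8849 bases), had 5496, 5482, 5222 and 5499 normalized counts in wild-type replicates 1 to 4 and 4215, 4418, 4072 and 4921 in Mbd2-/- replicates 1 to 4. The lowest wild-type library was 6.11% above the highest Mbd2-/- library, which was replicate 4. The means were 5425 ± 136 and 4407 ± 371 (SD, n = 4 each), and the log2 fold change was -0.30 (standard error 0.06, 95% interval -0.42 to -0.18, adjusted p = 0.00155, limma).

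Scn8a, whose product is the main alpha subunit at nodes of Ranvier and at the distal axon initial segment, lies on chromosome 15 (mm9 chr15:100785829-100876360, plus strand, 25 exons) and has the longest transcript of the set at 10944 bases. It had 5741, 5256, 5623 and 5591 normalized counts in the wild-type libraries and 4457, 4542, 4082 and 4960 in the Mbd2-/- libraries. Again the Mbd2-/- libraries were all lower, with replicate 4 the highest of them and the lowest wild-type value 5.96% above it. The log2 fold change was -0.30 (standard error 0.06, 95% interval -0.42 to -0.18, adjusted p = 0.00168, limma), from 5552 ± 208 to 4510 ± 361 (SD, n = 4 each).

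Scn1a, the alpha subunit whose loss of function underlies Dravet syndrome in patients, lies on the minus strand of chromosome 2 (mm9 chr2:66108838-66278897, 27 exons, longest transcript 8386 bases). Wild-type libraries had 1791, 1821, 1660 and 1727 normalized counts, and Mbd2-/- libraries had 1454, 1367, 1297 and 1586. The genotypes did not overlap, but the gap was narrow, the lowest wild-type value being 4.69% above the highest Mbd2-/- value. Means of 1750 ± 71.4 and 1426 ± 124 (SD, n = 4 each) gave a log2 fold change of -0.30 (standard error 0.06, 95% interval -0.43 to -0.17, adjusted p = 0.00356, limma).

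Scn3a (mm9 chr2:65295175-65405684, minus strand, 27 exons, longest transcript 9560 bases) had overlapping values in both genotypes. Its normalized counts were 881, 962, 892 and 965 in wild-type and 843, 870, 752 and 1032 in Mbd2-/- hippocampi. Mbd2-/- replicate 4 was the highest of all 8 libraries and Mbd2-/- replicate 3 the lowest. The log2 fold change was -0.09 (standard error 0.08, 95% interval -0.26 to 0.08, adjusted p = 0.448, limma), with means of 925 ± 44.6 and 874 ± 117 (SD, n = 4 each), so that a decrease as large as those of Scn1a, Scn2a1 and Scn8a (-0.30) lies outside its interval. This call rested on Mbd2-/- replicate 4. Without that library, the log2 fold change of Scn3a was -0.17 with an adjusted p of 0.0241 (limma), and all 7 genes were called lower, where 17.7% of all tested genes were called lower. With the length trend removed as well, 6 of the 7 were called lower, where 10.0% of tested genes were.

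The alpha subunits are close relatives in sequence, which matters for the counts, because reads that fit several genes cannot be placed. Reads of 100 bases were used, and 1.22% of all 100-base windows of the longest Scn1a transcript, 1.54% of those of Scn2a1 and 2.95% of those of Scn3a also occurred in a transcript of another tested sodium channel gene. No window of Scn8a, Scn2b, Scn3b or Scn4b did. The windows stand for single reads, while the reads came in pairs, so the share of pairs that fit several genes can differ. The values of Scn1a, Scn2a1 and Scn3a are uncertain in this respect. How reads with several alignments were counted is not given in the sources used here. For Scn3a, the least abundant of these 3 genes, reads from the more abundant Scn2a1 could weigh more than the share of Scn3a windows. The part of such reads in the Scn3a values was not tested. Between Scn8a and the other alpha genes the longest identical coding runs had 32 to 55 bases. The beta genes are hardly related at this level: Scn2b and Scn4b shared a run of 13 coding bases, and the other beta pairs shared none of 12 or more.

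Of these beta subunits, Scn2b, which is linked to the alpha subunit by a disulfide bond, had the highest level. It lies on the plus strand of chromosome 9 (mm9 chr9:44925959-44938153, 4 exons, longest transcript 4562 bases). Normalized counts were 4774, 4730, 4500 and 4523 in wild-type and 3665, 3951, 3959 and 3854 in Mbd2-/- libraries. The genotypes were set apart by 13.6% of the highest Mbd2-/- value, more than in any of the alpha genes. From 4632 ± 140 to 3857 ± 137 (SD, n = 4 each), the log2 fold change was -0.26 (standard error 0.05, 95% interval -0.36 to -0.16, adjusted p = 0.00118, limma).

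Scn3b, a beta subunit that associates with the alpha subunit without a covalent bond, had the smallest p of the 7 genes. It lies at mm9 chr9:40076801-40099203 (plus strand, 6 exons, longest transcript 4515 bases). Wild-type libraries had 3443, 3385, 3216 and 3337 normalized counts, and Mbd2-/- libraries had 2794, 2772, 2565 and 2724. The gap between the genotypes was 15.1%, the widest of the 7 genes. The log2 fold change was -0.30 (standard error 0.05, 95% interval -0.40 to -0.20, adjusted p = 0.000598, limma), from 3345 ± 96.3 to 2714 ± 104 (SD, n = 4 each), and it ranked 253 by p among the tested genes.

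Scn4b, which is known for enabling the resurgent sodium current of fast-firing neurons and is, like Scn2b, disulfide-linked, was the least abundant beta gene. It lies at mm9 chr9:44946520-44962235 (plus strand, 5 exons, longest transcript 4940 bases), 8.37 kb downstream of Scn2b. Its normalized counts were 516, 491, 528 and 489 in wild-type and 374, 398, 440 and 414 in Mbd2-/- libraries. All Mbd2-/- values were lower, with a gap of 11.2%. The log2 fold change was -0.32 (standard error 0.07, 95% interval -0.46 to -0.17, adjusted p = 0.00404, limma), the means being 506 ± 19.1 and 407 ± 27.7 (SD, n = 4 each).

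Mbd2 protein binds methylated CG dinucleotides. The promoters of the neighbours Scn2b and Scn4b and that of Scn8a are printed to show how far these genes differ in CG content. Each sequence runs from 250 bases before to 50 bases after the start of a RefSeq transcript, 5′ to 3′ on the coding strand, with CG in capitals, from the RefSeq annotation of GRCm38.p6, whose coordinates differ from those of mm9 given elsewhere. The Scn2b promoter is at GRCm38.p6 chr9:45117626-45117925 (plus strand), that of Scn4b at chr9:45138374-45138673 (plus strand) and the first promoter of Scn8a at chr15:100870395-100870694 (plus strand).
Scn2b: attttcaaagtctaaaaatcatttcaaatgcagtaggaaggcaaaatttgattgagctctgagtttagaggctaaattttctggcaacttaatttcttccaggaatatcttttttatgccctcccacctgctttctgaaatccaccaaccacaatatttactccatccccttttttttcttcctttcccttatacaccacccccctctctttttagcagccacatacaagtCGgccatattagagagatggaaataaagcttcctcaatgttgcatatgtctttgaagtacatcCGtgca
Scn4b: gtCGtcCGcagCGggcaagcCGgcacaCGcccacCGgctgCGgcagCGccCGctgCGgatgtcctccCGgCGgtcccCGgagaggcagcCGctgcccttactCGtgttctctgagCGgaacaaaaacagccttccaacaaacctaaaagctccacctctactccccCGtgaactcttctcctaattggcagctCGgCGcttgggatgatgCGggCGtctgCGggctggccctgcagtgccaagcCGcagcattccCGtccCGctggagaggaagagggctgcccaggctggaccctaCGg
Scn8a: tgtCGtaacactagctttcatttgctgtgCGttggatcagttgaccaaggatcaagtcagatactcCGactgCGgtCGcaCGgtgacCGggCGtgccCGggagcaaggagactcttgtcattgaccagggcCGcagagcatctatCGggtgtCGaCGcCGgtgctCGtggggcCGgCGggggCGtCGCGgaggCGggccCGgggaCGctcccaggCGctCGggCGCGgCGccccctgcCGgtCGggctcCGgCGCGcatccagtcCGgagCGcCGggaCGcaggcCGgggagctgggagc
The Scn2b promoter holds 2 CG, a number that 85.9% of the 32851 promoters of this length reach or exceed. The Scn4b promoter holds 26, reached or exceeded by 16.9% of promoters, and the Scn8a promoter 38, reached or exceeded by 4.95%. The letters CG read the same on both strands, and the median promoter holds 7. Promoters were matched for 5 of the 7 genes, and in these 300 bases Scn1a holds 5 CG, the promoters of Scn2a1 hold 3 and 9 and a second promoter of Scn8a holds 12. The log2 fold changes were -0.26 for Scn2b and -0.30 for Scn8a, and -0.20 and -0.15 with the length trend removed. Whether fold changes follow CG content was not tested. The CG counts describe the sequence only, and neither methylation nor binding of Mbd2 was measured in these libraries. The study measured both in hippocampi by ChIP-seq and capture bisulfite sequencing, and those data were not used here.

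To compare levels between genes, normalized counts were divided by the longest annotated transcript length in kilobases. On this scale of level per kilobase, the order in wild-type hippocampi was Scn2b (1015 ± 30.8, SD, n = 4), Scn3b (741 ± 21.3), Scn2a1 (613 ± 15.3), Scn8a (507 ± 19.0), Scn1a (209 ± 8.52), Scn4b (102 ± 3.86) and Scn3a (96.7 ± 4.66). The wild-type ranges of neighbours in this order did not overlap, except those of Scn4b and Scn3a. In Mbd2-/- hippocampi the levels per kilobase were 846 ± 30.0 for Scn2b, 601 ± 22.9 for Scn3b, 498 ± 41.9 for Scn2a1, 412 ± 32.9 for Scn8a, 170 ± 14.8 for Scn1a, 91.4 ± 12.2 for Scn3a and 82.3 ± 5.60 for Scn4b (SD, n = 4 each). The last 2 genes changed places, but their ranges overlapped in both genotypes.

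Within the alpha genes, the share of Scn3a was the one whose values did not overlap between the genotypes. As a percentage of the summed level per kilobase of the 4 alpha genes, Scn3a made up 6.35%, 7.10%, 6.69% and 7.01% in wild-type and 7.70%, 7.79%, 7.38% and 8.26% in Mbd2-/- libraries, without overlap between the genotypes (6.79% ± 0.340 against 7.78% ± 0.366, SD, n = 4 each). The shares of the other alpha genes overlapped between the genotypes. Scn2a1 made up 43.0% ± 0.595 in wild-type and 42.5% ± 0.657 in Mbd2-/-, Scn8a 35.6% ± 1.26 and 35.2% ± 0.425, and Scn1a 14.6% ± 0.508 and 14.5% ± 0.488 (SD, n = 4 each). The ratio of Scn8a to Scn2a1 per kilobase was 0.828 in both genotypes. Such shares compare genes within a library and do not depend on its scaling, and whether Scn3a differed in its response from the other alpha genes was not tested.

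**Figure D2:**
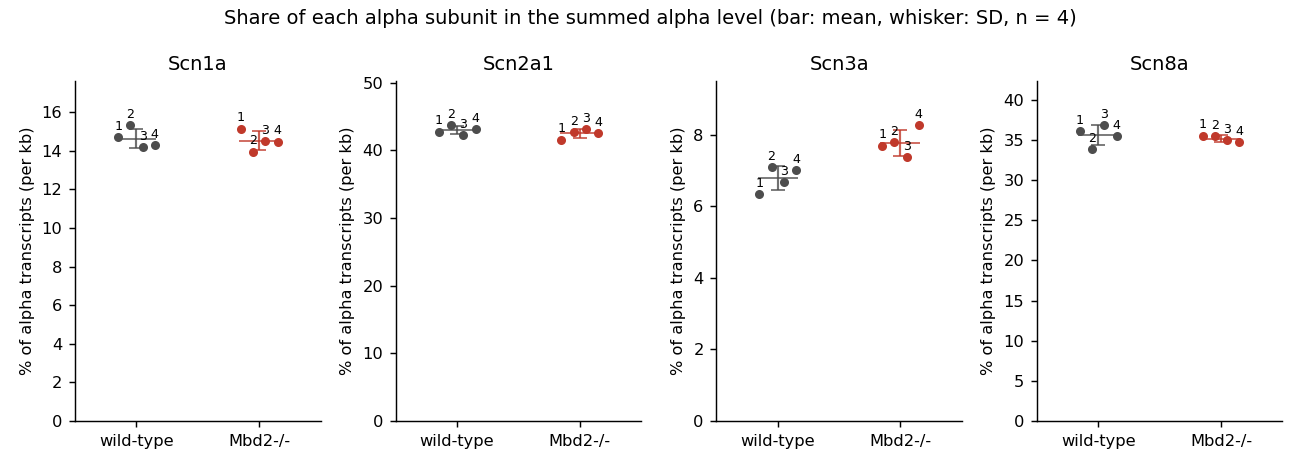
Share of each alpha gene (y axes, % of the summed normalized count per kilobase of the 4 genes, from 0) in each wild-type (grey) and Mbd2-/- (red) library, with replicate numbers, means as bars and SDs as whiskers (n = 4). The Scn3a share was 6.35% to 7.10% in wild-type and 7.38% to 8.26% in Mbd2-/- libraries, and the shares of the other 3 genes overlap.

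The alpha and beta groups were compared next, since their transcripts differ in length. The median log2 fold change was -0.30 for the 4 alpha genes and -0.30 for the 3 beta genes, against -9.10e-05 for all tested genes. The summed level per kilobase was 1426 ± 24.8 in wild-type and 1172 ± 99.8 in Mbd2-/- hippocampi for the alpha genes, and 1859 ± 49.7 and 1529 ± 25.7 for the 3 beta genes (SD, n = 4 each), without overlap between the genotypes in either sum. Their ratio, beta to alpha, was 1.30 ± 0.026 (SD, n = 4) in wild-type and 1.31 ± 0.106 (SD, n = 4) in Mbd2-/- libraries, and the ranges overlapped. The mean log2 value of the alpha genes minus that of the beta genes was 0.41 ± 0.04 in wild-type libraries and 0.46 ± 0.14 in Mbd2-/- libraries (SD, n = 4 each). In Mbd2-/- replicates 1 to 4 it was 0.48, 0.44, 0.28 and 0.62, so that the mean hides a spread between libraries that is wider than the difference of 0.05 between the genotypes.

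The mean of the alpha genes varied more between the Mbd2-/- libraries than the mean of the beta genes. Relative to the wild-type mean, the mean log2 ratio of the alpha genes in Mbd2-/- replicates 1 to 4 was -0.27, -0.26, -0.40 and -0.07. For the beta genes it was -0.34, -0.28, -0.27 and -0.28. In these libraries fold changes followed transcript length across genes. Spearman's rho between longest transcript length and the log2 ratio to the wild-type mean, over 14186 tested genes with a length, was -0.48, -0.43, -0.48 and -0.10 in Mbd2-/- replicates 1 to 4 and between -0.07 and 0.06 in the wild-type libraries, as a description across genes that are not independent. The median log2 ratio of genes with transcripts of 8000 bases or more was -0.22, -0.15, -0.25 and 0.04 in these Mbd2-/- libraries, lowest in replicate 3 and highest in replicate 4, as was the alpha mean, which in replicate 4 was still below 0. For genes of 4500 to under 5000 bases, the class of the beta genes, it was -0.09, -0.07, -0.11 and -0.02. In each of the 4 Mbd2-/- libraries, the mean log2 ratios of the alpha and of the beta genes were below the median of their length class.

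**Figure D3:**
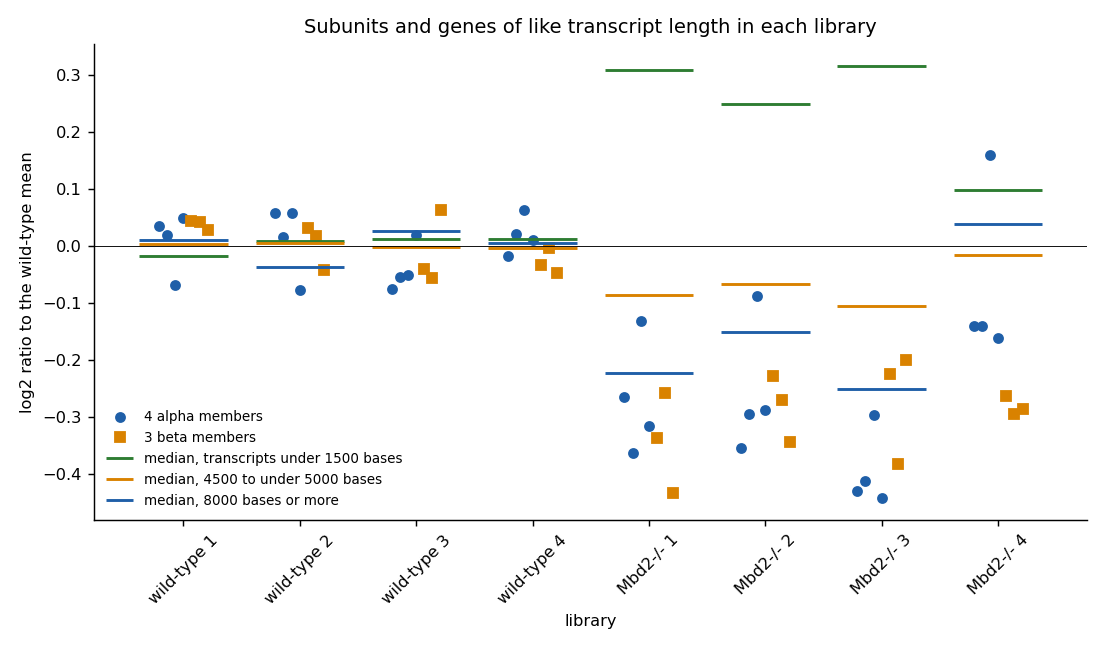
Log2 ratio to the wild-type mean (y axis) of the 4 alpha genes (circles) and the 3 beta genes (squares) in each library (x axis), with lines for the median of all tested genes with transcripts under 1500, of 4500 to under 5000 and of 8000 bases or more. The mean of the 3 beta genes ranges from -0.34 to -0.27 over the Mbd2-/- libraries, although single genes vary more (Scn4b from -0.43 to -0.20), while the alpha means run from -0.40 in replicate 3 to -0.07 in replicate 4.

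Genes of the 2 length classes had different shares of lower calls. Among the 665 tested genes with transcripts of 8000 bases or more, 29.6% were called lower, the median log2 fold change was -0.15, and 3 of the 4 alpha genes were called lower. Of the 876 genes of 4500 to under 5000 bases, 14.7% were called lower, the median was -0.07, and all 3 beta genes were called lower. Among the 1905 genes under 1500 bases, 1.26% were called lower and 34.9% higher, and among the 4572 of 1500 to under 3000 bases and the 2160 of 5000 to under 8000 bases 3.15% and 23.7% were called lower. When each library was first corrected for the trend with length, the same 6 genes were called lower, where 6.77% of tested genes were called lower (7.45% with the replicate number as a block as well, and again the same 6 genes). Their log2 fold changes became smaller, with -0.17 for Scn1a (adjusted p = 0.0321), -0.17 for Scn2a1 (0.00773), -0.15 for Scn8a (0.0159), -0.20 for Scn2b (0.00381), -0.24 for Scn3b (0.00101) and -0.24 for Scn4b (0.0180), all from limma with Benjamini-Hochberg adjustment. The medians moved apart, to -0.16 for the alpha and -0.24 for the beta genes, and Scn3a changed sign to 0.05 (adjusted p = 0.619). The difference between alpha and beta genes by library was then 0.41 ± 0.05 (SD, n = 4) in wild-type and 0.53 ± 0.09 (SD, n = 4) in Mbd2-/- hippocampi, with overlapping ranges.

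**Figure D4:**
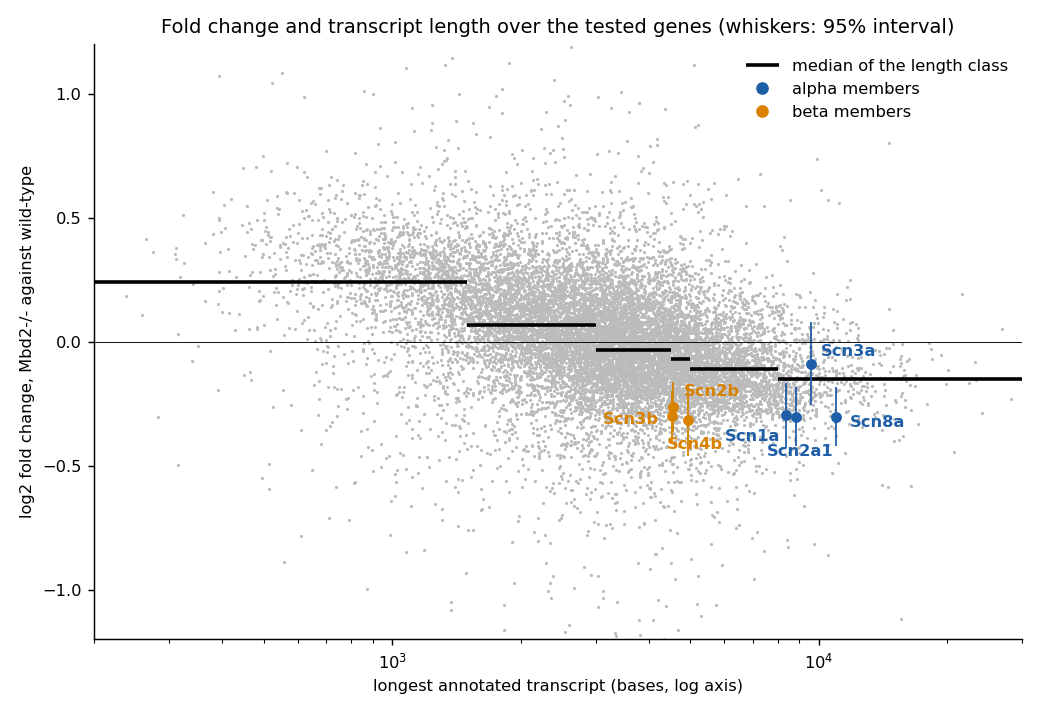
Log2 fold change (y axis, Mbd2-/- against wild-type) by longest annotated transcript in bases (x axis, log scale) for tested genes (grey points, those beyond the axis ranges not drawn), with the median of each length class as a black line and the 7 subunit genes in colour with their 95% intervals. Alpha and beta genes lie near -0.30 at very different lengths, except Scn3a, and the class medians fall from 0.24 under 1500 bases to -0.15 at 8000 bases or more.

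After subtraction of the genotype means, Pearson's r over the 8 libraries, which differ in their trend with length, was between 0.66 and 0.93 for pairs of alpha genes and between -0.77 and 0.48 for pairs of the 3 beta genes, as a description.

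Among sodium channel genes outside the 7, Scn7a, a sodium sensor of glia and some neurons, had 61.3 ± 8.41 and 47.8 ± 15.7 normalized counts and a log2 fold change of -0.40 (adjusted p = 0.171, limma), and it was called without Mbd2-/- replicate 4 (-0.58, adjusted p = 0.0168). Scn9a, known from pain-sensing neurons, had 38.6 ± 5.20 and 31.4 ± 6.19 normalized counts and a log2 fold change of -0.30 (adjusted p = 0.247, limma). The muscle gene Scn4a and the sensory neuron genes Scn10a and Scn11a had means under 2 normalized counts in both genotypes and were not tested.

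Sodium channels are held at the axon initial segment by a scaffold of ankyrins, spectrins and adhesion molecules. Of 14 genes of this scaffold, with the potassium channels that share it, 8 were called lower and 0 higher, their median log2 fold change being -0.16, where 10.0% of tested genes were called lower. Nfasc, whose product neurofascin anchors the complex at the membrane, fell the most. Its normalized counts were 4134, 3765, 4243 and 3911 in wild-type and 2969, 3079, 3003 and 3126 in Mbd2-/- libraries, with no overlap, and the log2 fold change was -0.40 with a standard error of 0.05 (adjusted p = 0.000109, limma). Sptbn4, the beta-IV spectrin of the segment, followed with -0.27 (adjusted p = 0.00487). The other called genes included Camsap2 (-0.22), which binds microtubule ends, the ankyrins Ank1 (-0.21) and Ank2 (-0.17), the potassium channel subunit Kcnq3 (-0.19), and the spectrin Sptan1 (-0.16). Ank3 encodes ankyrin-G, the organizer of the segment that binds the alpha subunits directly, and was not called, with 5811 ± 290.5 normalized counts in wild-type and 5737 ± 663 in Mbd2-/- (SD, n = 4 each, log2 fold change -0.02, adjusted p = 0.834, limma). Sptbn1, with Sptan1 one of the scaffold genes highest per kilobase, had a log2 fold change of -0.08 (adjusted p = 0.275). Of the 8 called genes, 7 have transcripts of 7823 bases or more, in the length classes with 23.7% and 29.6% of lower calls, and Kcnq3 has 2622, in that with 3.15%.

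The intracellular fibroblast growth factors bind the cytoplasmic tail of the alpha subunits, and of 4 such genes 1 was called in each direction, where 10.0% of all tested genes were called lower and 12.0% higher. Fgf11 fell from 297 ± 9.53 to 253 ± 14.9 normalized counts (SD, n = 4 each, log2 fold change -0.24, adjusted p = 0.0306, limma). Fgf13, the highest of them per kilobase, rose from 2528 ± 164 to 2901 ± 145 (SD, n = 4 each), a log2 fold change of 0.20 (adjusted p = 0.0198, limma) with overlap between the libraries. Fgf12 had a log2 fold change of -0.16 (adjusted p = 0.191) and Fgf14, a factor of the initial segment linked to ataxia, one of -0.19 (adjusted p = 0.159).

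Of 18 genes that regulate the channels at the level of transcription, splicing or protein or bind them, 3 were called lower and 1 higher, where 10.0% of all tested genes were called lower and 12.0% higher, and the median log2 fold change was -0.06. Nedd4l, a ubiquitin ligase that removes sodium channels from the membrane, fell from 2949 ± 44.0 to 2460 ± 164 normalized counts (SD, n = 4 each, log2 fold change -0.26, adjusted p = 0.00277, limma). Bace1, the protease that cleaves the beta subunits, had a log2 fold change of -0.18 (adjusted p = 0.0177), and the kinase gene Pak1 one of -0.15 (adjusted p = 0.0269). Calm3, the highest per kilobase of the list, had 0.05 (adjusted p = 0.564). Rest, the repressor of neuronal genes through which Scn2a1 is known to be silenced outside neurons, had a log2 fold change of 0.18 (adjusted p = 0.334).

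Several lists of markers of other cell types and of regions next to the hippocampus moved with genotype, and their counts are to be read against the 10.0% of all tested genes called lower and the 12.0% called higher. All markers were detected in at least 1 library, none being at 0 throughout. The summed normalized count of 10 markers of all neurons was 87776 to 92622 in wild-type and 84314 to 92872 in Mbd2-/- libraries, with 1 called lower and 0 higher. Syt1 was the neuron marker called lower (log2 fold change -0.24, adjusted p = 0.00255, limma), and the median log2 fold change of the neuron list was -0.05. Of 12 thalamus markers 10 were called lower and 0 higher, and their sum was 9566 to 9799 in wild-type and 7173 to 7844 in Mbd2-/- libraries, while all 12 choroid plexus markers were called higher, with a sum of 14649 to 15940 against 31635 to 39049. Of 12 interneuron markers 3 were called lower and 5 higher (sum 14401 to 15169 against 13639 to 15499), and of 12 markers of glutamatergic hippocampal neurons 4 lower and 1, Camk2a, higher, the median log2 fold change being -0.13 and the sum higher (96183 to 98239 against 105240 to 110668), to which Camk2a, at 68037 ± 941 and 81908 ± 1449 normalized counts (SD, n = 4 each), contributes the most. Astrocyte markers were called higher in 6 of 8 (116143 to 118739 against 128599 to 151201), oligodendrocyte markers in 7 of 10 (79139 to 80590 against 93507 to 99724) and microglia markers in 7 of 9 (5441 to 5689 against 6174 to 7060), none of them lower. Endothelial and pericyte markers were called higher in 2 of 8 (3208 to 3341 against 3589 to 3921), oligodendrocyte precursor markers lower in 2 of 7 (4862 to 5199 against 4600 to 5075), and of 10 tested striatum markers 1 was called lower and 2 higher (2364 to 2532 against 2350 to 2582). Among the most abundant markers, Snap25 and Map2 of neurons had log2 fold changes of 0.02 and 0.11 and were not called, Adarb1 and Rora of the thalamus list had -0.26 and -0.35, and Ttr and Kl of the choroid plexus had 1.32 and 0.56. The part of these shifts in the lower levels of the sodium channel genes was not tested.

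The calls of the 6 genes changed little with the processing. In 14 of 15 alternative settings, among them other scalings, DESeq2 (9.18% of tested genes called lower), edgeR (9.67%) and limma-voom on the reads and removal of the length trend, each of the 6 genes was called lower, the exception being the minimum change of 1.2-fold. The 15 settings include a fit chosen after seeing the data, with the length trend removed and Mbd2-/- replicate 4 left out. Each of the 6 genes was also called in all 8 fits that left out 1 library. In these fits the log2 fold changes ran from -0.36 to -0.24 over the 6 genes.

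**Figure D5:**
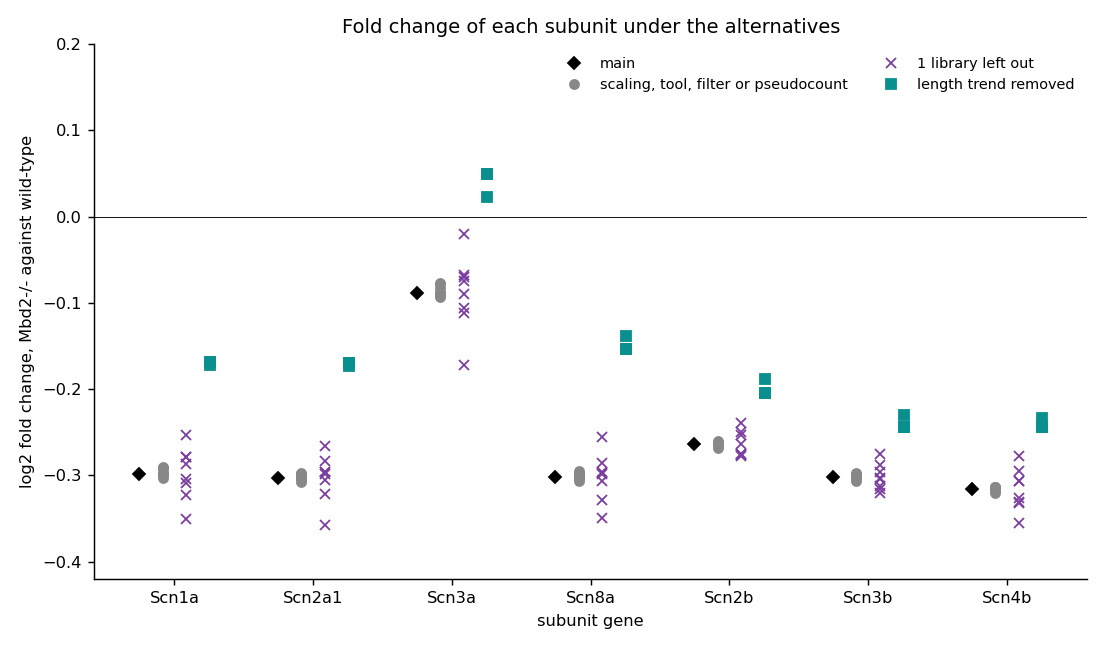
Log2 fold change (y axis, Mbd2-/- against wild-type) of each of the 7 genes (x axis) in limma with all 8 libraries (diamonds), under other scalings, tools, filters and pseudocounts (circles), with 1 library left out (crosses) and with the length trend removed (squares). The 6 called genes are below 0 in every setting, and Scn3a runs from -0.17 without Mbd2-/- replicate 4 to 0.05 with the length trend removed.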

How the data were processed

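RNA-seq was performed on hippocampi of 4 wild-type and 4 Mbd2-/- pools of 2 mice each, with the genotypes taken from the sample titles. Total RNA was depleted of ribosomal RNA with a RiboMinus kit, and an Illumina HiSeq instrument gave read pairs of 100 bases. According to the study's methods, duplicates were removed, STAR served as aligner to mm9 and DESeq2 as test, while versions and the tool that counted reads on genes are not given in the sources used here. The signal deposited by the authors is a normalized count, the reads on a gene over the DESeq2 size factor. The deposited log2 fold changes with their standard errors, the deposited score (Wald statistic) and the deposited p-values and adjusted p-values come from the authors' own comparison and were not used.

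Reads were recovered from the normalized counts, 100% of the values being whole to within 0.01 of a read. They totalled 8087750 to 23790825 per library, and these totals and all intervals on reads cover counting error only. Replicates are pools, and no pair of libraries of a genotype agreed within counting error (1.97 to 15.4 times the counting variance), so none was counted as a repeat. The test was limma 3.58.1 (trend, robust) in R 4.3.3 on log2(normalized count + 1) of all 8 libraries, without covariates, for genes whose normalized counts averaged 10 or more. A Benjamini-Hochberg adjusted p under 0.05 over all these genes made a call. On the log2(value + 1) scale, changes of low genes are understated. The test was first tried on simulated counts with known changes. It recovered 30.3% of changes of 1.2-fold, 90.9% of 1.5-fold and 95.4% of 2-fold, with 11 false calls and 14388 genes tested. Changes near 1.2-fold were thus often missed in the simulation. Alternatives used DESeq2 1.42.0, edgeR 4.0.16 and limma-voom on the recovered reads, other scalings, filters and pseudocounts, and a limma test for a minimum change of 1.2-fold. They also used a replicate block, removal of a loess trend (span 0.3) of each library on log2 transcript length, and fits without 1 library. The minimum change was the null of its test and not a cut-off on the estimate. Coordinates and transcript lengths are from GENCODE vM1 on mm9, matched by symbol (16812 directly, 1290 by synonym, 1099 unmatched).

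The 7 genes, the lists of related genes and markers and the tests were chosen with earlier results of these data known. Genes named are the 7 members, other sodium channel genes, Mbd2, the called and the 2 highest genes per kilobase of each list of related genes, the 2 most abundant genes of each marker list (values given for the neuron, thalamus and choroid plexus lists and for Camk2a) and the 2 genes most like each member across libraries. Fgf14, Ank3 and Rest, named for their known roles, Syt1, named as the called neuron marker, and the called chromosomal neighbours with Mpzl3 and Il10ra fall outside this rule. They were named after their values were seen. Some genes under this rule and one shared sequence are not reported here, although the counts over the lists include these genes.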

Additional observations from a re-analysis of the deposited data

Results flagged for a closer look

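In 20 groups of 4 libraries, the values of 10 sodium channel and control genes in each genotype, 1 library stood far from the others of its group. The normalized count of Scn2a1 in wild-type replicate 3 was 5222, while the other wild-type libraries lay between 5482 and 5499, so that the gap made up 0.938 of the range of the group, above Dixon's 95% critical value for 4 samples. Chance flags about 1 in 20 groups, and 1 of 20 is equal to that share. Without this library the log2 fold change of Scn2a1 was -0.32 (adjusted p = 0.00581, limma).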

How the results depend on the processing

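The number of subunits called lower stayed at 6 in each alternative but 1 with all 8 libraries, and at 6 to 7 when 1 library was left out, 7 being the count without Mbd2-/- replicate 4. The exception was the minimum change of 1.2-fold, under which 0 were called. The number called higher was 0 in each. The medians moved with the length trend removed, to -0.16 for the alpha and -0.24 for the beta genes, and to the same values with the replicate block added. In a fit chosen after seeing the data, with the length trend removed and Mbd2-/- replicate 4 left out, they were -0.16 and -0.23. With 1 library left out they ran from -0.35 to -0.25 and from -0.31 to -0.28. The sign of Scn3a reversed to 0.0497 with the length trend removed, with and without the block, and to 0.0221 without Mbd2-/- replicate 4 as well. The cause of these reversals was not tested beyond the removal of the trend itself. The call of Mbd2 was lost in 2 of 15 alternatives and in 3 of 8 fits without 1 library. The alpha minus beta difference between the genotypes was 0.12 with the length trend removed and ran from -0.01 to 0.10 with 1 library left out.

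Libraries of both genotypes share replicate numbers, but the deviations of same-numbered libraries from their group means correlated with -0.10, -0.06, 0.07 and 0.04 over genes. These values show no pairing by number but cannot exclude it, and the labels do not say which mice or litters are in which pool. With the number as a replicate block, the count of subunits called lower was 6 and no call of the 7 genes changed. Dividing by transcript length did not decide the shares within the alpha genes, the Scn3a share without it being 6.78% ± 0.352 and 7.77% ± 0.366 (SD, n = 4 each). Each subunit had 276 reads or more per library, while 3 other sodium channel genes were too low to test.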

Other observations

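The sodium channel genes are clustered in the genome. From Scn3a to the end of Scn7a, 5 of them lie within 1328 kb of mm9 chromosome 2, with Scn3a 53.2 kb from Scn2a1 and Scn1a 39.2 kb from Scn9a, and Scn2b and Scn4b are 8.37 kb apart on chromosome 9. The 2 nearest tested genes on each side of each of the 7 subunit genes include 17 genes that encode no sodium channel, and 5 of these were called lower and 0 higher (limma, adjusted p under 0.05), where 10.0% of all tested genes were called lower. They were Csrnp3, 78.3 kb from Scn2a1 (log2 fold change -0.34, transcript of 10672 bases), the bicarbonate transporter gene Slc4a8, 131 kb from Scn8a (-0.33, 11790 bases), the activin receptor gene Acvr1b, 128 kb from Scn8a (-0.27, 3277 bases), AW551984, 665 kb from Scn3b (-0.83, 4293 bases), and Gramd1b, 1.61 kb from Scn3b (-0.27, 7334 bases). The immediate neighbours of Scn2b and Scn4b were not called, with log2 fold changes of -0.04 for Mpzl3 (adjusted p = 0.927) and 0.01 for Il10ra (adjusted p = 0.951).

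The tested genes whose values followed those of each subunit most closely across the 8 libraries, after subtraction of the genotype means, are given as a description. For Scn1a they were 6430573F11Rik (Pearson's r = 0.994) and the bicarbonate transporter gene Slc4a10 (0.991), for Scn2a1 Cnot6l (0.996) and Rap1b (0.995), for Scn3a Tmem167 (0.999) and Arl5a (0.997), and for Scn8a Adra1a (0.993). The beta genes had Spata2 (0.988) and Vti1a (0.966) for Scn2b, Wdr47 (0.974) and Rab6b (0.973) for Scn3b, and Ppl (0.987) and Mapk7 (0.978) for Scn4b. These values are the highest of 14504 and rest on 8 libraries that differ in their trend with transcript length. Of the genes named here, Wdr47 (log2 fold change -0.22, adjusted p = 0.0107) and Ppl (-0.54, adjusted p = 0.0345) were called lower and Rap1b (0.27, adjusted p = 0.0236) higher in limma.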
